A study of Mus musculus with 6 samples.

Results

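The proteasome genes were taken by name, as all genes whose single symbol in the platform annotation reads Psm followed by a letter from a to g and a digit. They numbered 48 of the 12393 genes with a probe set of their own, and each was read by its brightest probe set over the 6 arrays. Of these, 46 code for subunits, activators, the inhibitor or assembly chaperones, while Psmc3ip, a factor of meiotic recombination, and Psme3ip1, a binding partner of an activator, share only the name. Expression had been measured with Affymetrix arrays on total RNA of skeletal muscle, with 1 array for each of 3 TFEB KO and 3 WT mice, all C57BL/6 and 1 month old. TFEB KO mice carried floxed Tcfeb, the mouse gene now called Tfeb, and a Cre driven by the promoter of myosin light chain 1f. The deletion is therefore directed at muscle fibers, and the other cells of the tissue keep the gene. WT mice were of the same strain and age. The replicates are separate mice according to the labels, and the sources used here do not name the muscle. In such bulk samples fewer cells of a type and less RNA per cell cannot be told apart.

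The proteasome is the barrel-shaped protease that degrades proteins tagged with ubiquitin. Its core stacks outer rings of alpha subunits, which form the gate, on inner rings of beta subunits, of which Psmb5, Psmb6 and Psmb7 cut the chain. The regulatory particle caps the core, binds ubiquitin, and unfolds and feeds in the substrate, while interferon-gamma replaces the cutting subunits with Psmb8, Psmb9 and Psmb10 in the immunoproteasome. In muscle the proteasome takes apart myofibrillar proteins during atrophy, beside the lysosomal pathway whose genes TFEB activates through a DNA motif with the E-box core CACGTG.

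All values are on the log2 scale of RMA, the method by which the authors corrected background, normalized between arrays and summarised each probe set (a shift common to most genes would thus be mostly lost). The deleted gene Tfeb read 7.10, 7.23 and 7.04 in TFEB KO muscle, against 8.61, 8.55 and 8.96 in WT muscle (log2 fold change -1.58, adjusted p = 0.00787 from limma). The sources used here do not say if its probe set lies in the deleted part. Arrays of a group correlated at 0.992 to 0.997 (Pearson), and arrays of different groups at 0.989 to 0.993. Markers of muscle fibers were bright on all arrays, with mean values of 14.13 to 14.24 in TFEB KO and 14.20 to 14.24 in WT muscle. The 9 had a median log2 fold change of 0.00, with 5 above 0 and 4 below, and none passed the test in limma. Myh2, named after its value was seen, was lower on every TFEB KO array than on any WT array (-0.57, adjusted p = 0.0977 from limma). All 11 macrophage markers were higher on every TFEB KO array than on any WT array (6 passed the test over all arrays, median log2 fold change 0.85), and 5 of 6 endothelial markers were lower on every TFEB KO array (3 passed, median -0.77). Of all genes, 10.8% were so separated upward and 12.9% downward, while 0.871% passed as higher and 0.702% as lower.

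Proteasome genes differed little between the genotypes, and the constitutive core stood above WT by a small margin. None of the 48 genes passed the test in limma at an adjusted p under 0.05 over all 22626 probe sets, where 1.57% of all genes passed (0.871% higher and 0.702% lower in TFEB KO muscle). The smallest adjusted p was 0.0904. At an unadjusted p under 0.05, 8 were higher (8.49% of all genes were) and 2 were lower (8.66% of all genes were). Together they made 20.8%, against 17.1% of all genes and 22.4% of the 1434 genes whose mean lay above 10. The genotypes were fully separated in 23 of the 48 genes (47.9%, against 23.8% of all genes and 35.3% of those with a mean above 10). TFEB KO was above WT in 19 of them and below in 4, where 10.8% and 12.9% of all genes were so separated, and 16.5% of genes with a mean above 10 had TFEB KO above WT. The log2 fold changes of the 48 genes ran from -0.26 to 0.40 with a median of 0.08, against a median of -0.01 for all genes. By mean value 47 of the 48 lay above 4.69, the limit of the dimmest 25% of probe sets, which is no call of detection. The exception was Psma8, the alpha subunit of the testis, at 3.53 ± 0.17 in TFEB KO and 3.66 ± 0.14 in WT muscle (SD, n = 3 mice each).

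**Figure D1:**
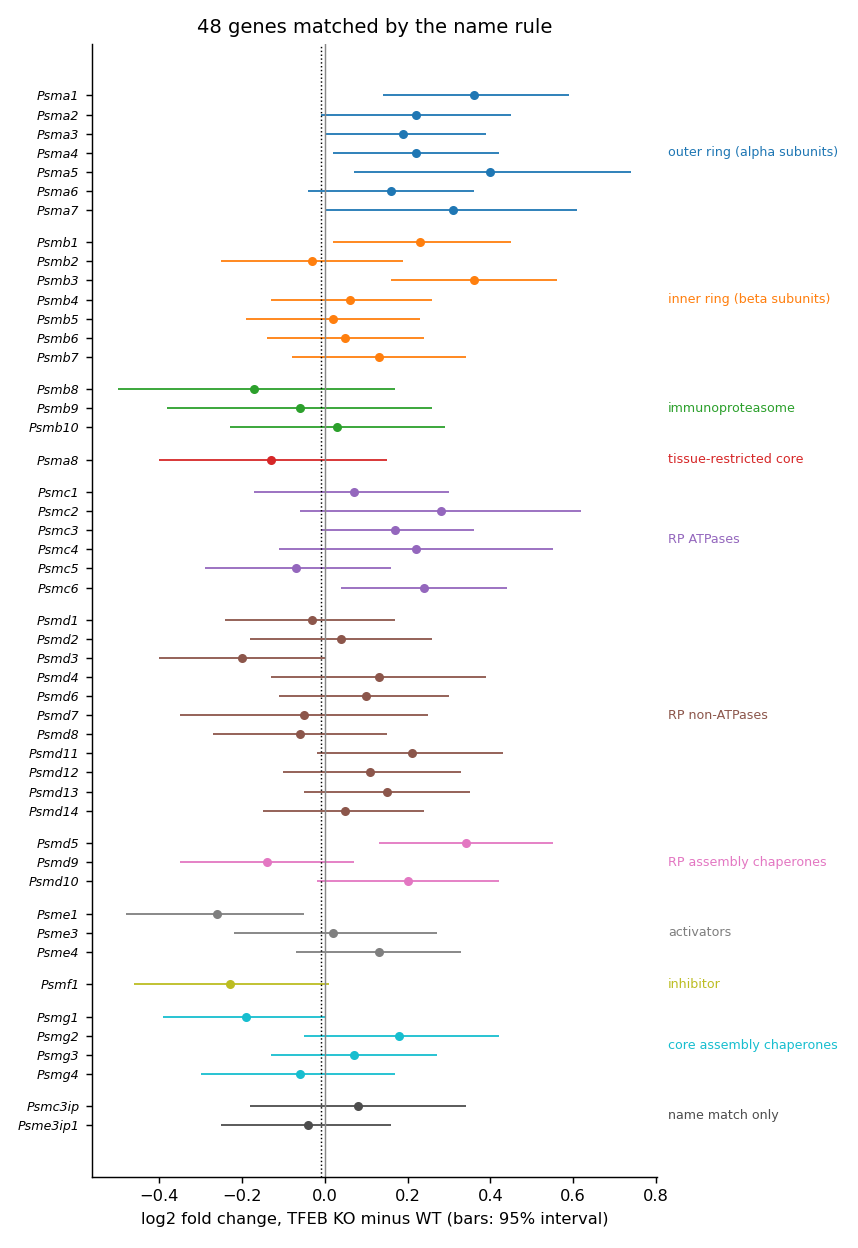
Log2 fold change of TFEB KO over WT muscle (horizontal axis) for the 48 genes, grouped by role, with the regulatory particle written RP. Points are the limma estimates from 3 arrays a group, bars are 95% intervals, and the dotted line is the median of all genes (-0.01). All 7 alpha subunits lie to the right of 0, while Psme1 lies at -0.26.

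Promoter windows from RefSeq (build GRCm38.p6, 250 bases before to 50 after each start) were in hand for 40 of the 48 genes. The E-box core CACGTG, which reads the same on both strands, is shown because TFEB binds it. It was in 5 of their 43 windows (11.6%), each of a different gene, against 7.15% of all 32851 windows. The 4 of them that belong to subunits or regulators are printed on the strand of the gene, with the E-box in capitals, and the matches begin 140, 116, 44 and 51 bases before the start in the order of the lines. They lie at chr9:54950707-54950736 (+), chr8:105938491-105938520 (-), chr11:101316157-101316186 (+) and chr5:123228127-123228156 (+).
Psma4: ttctgcacagtcCACGTGggcagactgagc
Psmb10: gttcccaacgccCACGTGgtggcacgccca
Psme3: ggctgcgcagggCACGTGctcatcctcccc
Psmd9: tcatctgaaaacCACGTGgtctatctagcc
The genes that carry it belong to different classes, and their log2 fold changes were 0.22 for Psma4, 0.03 for Psmb10, 0.02 for Psme3 and -0.14 for Psmd9, none past the test. The other match was in Psme3ip1 (-0.04).

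The letters TGACNNNGC are the core of the antioxidant response element, which NFE2L1 and NFE2L2 bind in genes of the proteasome. Searched on both strands, they were in 6 of the 43 windows (14%), each of a different gene, against 12.4% of all windows. Those of 2 cutting subunits are shown with the match in capitals, at chr14:54618024-54618052 (-) and chr11:70525338-70525366 (+). They begin 47 and 9 bases before the start.
Psmb5: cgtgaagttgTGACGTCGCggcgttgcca
Psmb6: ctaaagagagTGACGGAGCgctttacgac
A match of letters describes the window and does not show a site in use. Psmb5 and Psmb6 had log2 fold changes of 0.02 and 0.05, and the other matches were in Psmc6 (0.24), Psme4 (0.13), Psmd12 (0.11) and Psmd9 (-0.14), none past the test.

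The alpha ring of the core, whose subunits gate the entry of substrates, lay above WT by a small margin in TFEB KO muscle. All 7 subunits lay above 0, with log2 fold changes of 0.16 to 0.40 and a median of 0.22, and in 6 of them all TFEB KO arrays were above all WT arrays (10.8% of all genes, 16.5% of those with a mean above 10). At an unadjusted p under 0.05 were 4 of the 7 (8.49% of all genes were higher so, and 11.2% of those with a mean above 10), and none passed the adjusted test.

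Psma1 read 10.63, 10.56 and 10.53 in TFEB KO muscle, against 10.07, 10.29 and 10.27 in WT muscle. The groups stood apart, with WT 1 the lowest array. The difference was 0.36 on the log2 scale (standard error 0.10, 95% interval 0.14 to 0.59, adjusted p = 0.106), or 1.29-fold. Psma5 read 10.59, 10.62 and 10.98 in TFEB KO muscle, against 10.19, 10.23 and 10.56 in WT muscle (0.40, standard error 0.14, adjusted p = 0.204). The third array was the highest of each group, by more than the other arrays differed. Psma4 read 11.48, 11.35 and 11.39 in TFEB KO muscle, against 11.16, 11.25 and 11.17 in WT muscle (0.22, standard error 0.09, adjusted p = 0.256). Psma7 was the alpha subunit whose groups overlapped, with 10.54, 10.39 and 10.74 in TFEB KO muscle and 10.07, 10.23 and 10.46 in WT muscle (0.31, standard error 0.13, adjusted p = 0.288). The other 3 alpha subunits had log2 fold changes of 0.16 to 0.22.

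**Figure D2:**
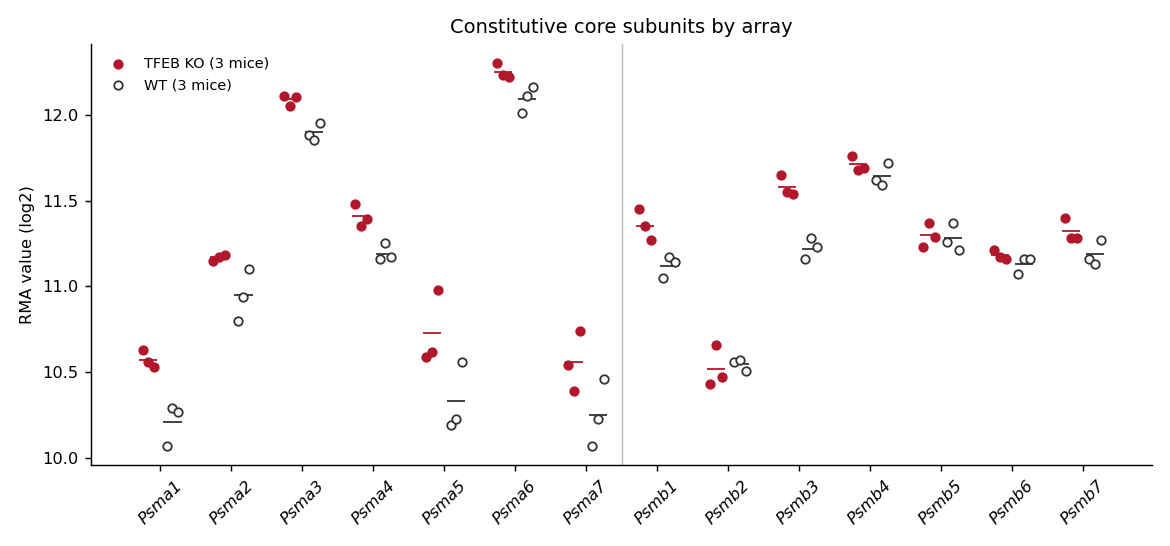
RMA value (log2, vertical axis) of the 14 constitutive core subunits, with the alpha ring left and the beta ring right of the line. Each point is 1 mouse, filled for 3 TFEB KO and open for 3 WT mice, and short lines are group means. Psma1 and Psmb3 show a clear gap between the groups, while Psmb5 reads 11.23 to 11.37 in TFEB KO and 11.21 to 11.37 in WT muscle.

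In the beta ring the 7 log2 fold changes ran from -0.03 to 0.36 with a median of 0.06, and none passed the test. Of the structural subunits, Psmb3 and Psmb1 lay above WT without overlap, while Psmb4 (0.06, named after its value was seen) and Psmb2 overlapped. Psmb3 read 11.65, 11.55 and 11.54 in TFEB KO muscle, against 11.16, 11.28 and 11.23 in WT muscle. It had the smallest p of the 48 genes, and the groups differed by 0.36 on the log2 scale (standard error 0.09, 95% interval 0.16 to 0.56, adjusted p = 0.0904), or 1.28-fold. With trended and robust moderation in limma its adjusted p was 0.0442, the only call of any proteasome gene under another setting of the adjusted tests. Its dimmer probe set did not show the difference, at -0.02 (adjusted p = 0.961). Psmb1 read 11.45, 11.35 and 11.27 in TFEB KO muscle, against 11.05, 11.17 and 11.14 in WT muscle (0.23, standard error 0.09, adjusted p = 0.245), and its other probe sets were at 0.28 and 0.31. Psmb2 was the lowest of the ring at -0.03.

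Of the cutting subunits, Psmb5 carries the chymotrypsin-like activity and read 11.23, 11.37 and 11.29 in TFEB KO muscle, against 11.26, 11.37 and 11.21 in WT muscle. The groups overlapped, and the 95% interval of its log2 fold change, -0.19 to 0.23, leaves room for 1.17-fold higher or 1.14-fold lower. Psmb6, with the caspase-like activity, had a log2 fold change of 0.05 (95% interval -0.14 to 0.24). Psmb7, with the trypsin-like activity, had one of 0.13 (-0.08 to 0.34, adjusted p = 0.511), and its TFEB KO arrays (11.28 to 11.40) were just above those of WT (11.13 to 11.27).

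Over the 14 core subunits, 13 lay above 0 (46.6% of all genes did), the median was 0.20, and TFEB KO was above WT without overlap in 10. Those 10 include Psmb6, whose lowest TFEB KO array and highest WT array both read 11.16 after rounding. The median of all 1434 genes with a mean above 10 was 0.01, and TFEB KO was above WT without overlap in 16.5% of those. KO 1 was the highest array in 9 core subunits and WT 1 the lowest in 9. Without KO 1 the core median was 0.18, with 14 of 14 above 0, and without WT 1 it was 0.17, with 13 of 14. Without both KO 3 and WT 1, a fit that keeps KO 1, it was 0.14, with 14 of 14 above 0. With the brightest plain probe set of each gene (suffix _at) it was 0.11, with 11 of 14 above 0.

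The immunoproteasome did not differ beyond the spread between mice. Within an array its subunits minus the constitutive subunits they replace gave -4.49 to -2.85 on the log2 scale, which is a difference between probe sets and no ratio of transcripts. Psmb8, which replaces Psmb5, read 7.25, 6.98 and 6.80 in TFEB KO muscle, against 7.40, 7.01 and 7.12 in WT muscle (log2 fold change -0.17, 95% interval -0.50 to 0.17, adjusted p = 0.615). Psmb9, which replaces Psmb6, read 7.17, 6.79 and 6.75 in TFEB KO muscle, against 7.04, 7.08 and 6.78 in WT muscle (-0.06, -0.38 to 0.26, adjusted p = 0.879). Psmb10, which replaces Psmb7, read 8.14, 8.21 and 8.09 in TFEB KO muscle, against 8.16, 8.28 and 7.91 in WT muscle (0.03, -0.23 to 0.29, adjusted p = 0.934). In each of these genes the arrays of the genotypes were interleaved. The difference of Psmb8 minus Psmb5 within an array was -3.98, -4.39 and -4.49 in TFEB KO muscle and -3.86, -4.36 and -4.09 in WT muscle, and the pairs Psmb9 with Psmb6 and Psmb10 with Psmb7 overlapped as well.

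Macrophages carry the immunoproteasome, and the 11 macrophage markers had mean levels of 8.20, 7.73 and 7.67 on the TFEB KO arrays, against 7.15, 6.89 and 6.57 on the WT arrays. The pan-leukocyte gene Ptprc, chosen after its value was seen, had a log2 fold change of 1.29 (adjusted p = 0.0488), while the other 7 measured markers of lymphoid cells lay between -0.17 and 0.14. KO 1, highest for the macrophage markers, was the highest TFEB KO array of Psmb8 and Psmb9, while KO 2 was that of Psmb10. Over all arrays Psmb9 was highest in KO 1, Psmb8 in WT 1 and Psmb10 in WT 2. The part of macrophage RNA in the immunoproteasome values was not tested.

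**Figure D3:**
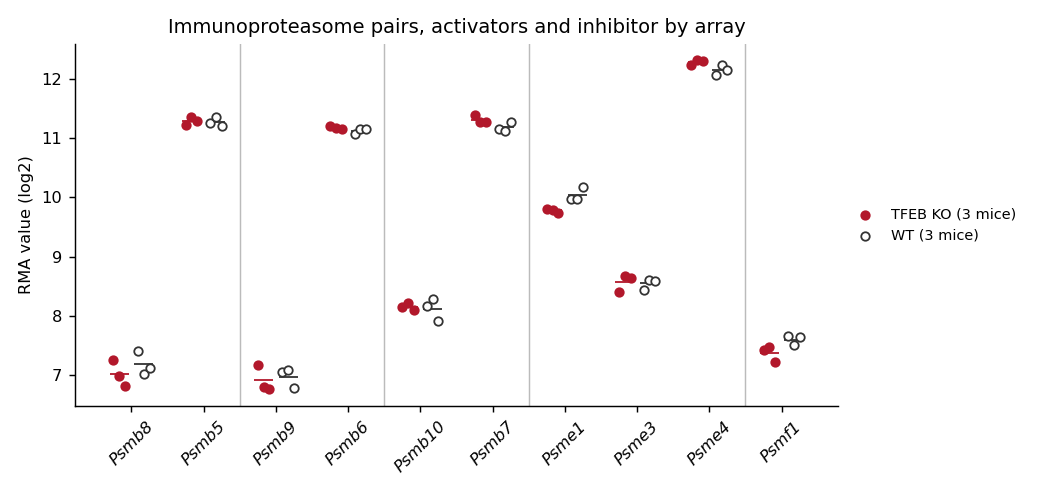
RMA value (log2, vertical axis) of each immunoproteasome subunit beside the constitutive subunit it replaces, then of the activators and the inhibitor Psmf1. Each point is 1 mouse, filled for 3 TFEB KO and open for 3 WT mice, and short lines are group means. The groups are interleaved for Psmb8, Psmb9 and Psmb10, while the TFEB KO arrays of Psme1 (9.74 to 9.81) lie below those of WT (9.98 to 10.17).

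Activators open the gate of the core from outside, and among them Psme1 was the one that read below WT in TFEB KO muscle. Psme1, the alpha subunit of the activator that interferon-gamma induces, read 9.81, 9.79 and 9.74 in TFEB KO muscle, against 9.98, 9.98 and 10.17 in WT muscle. At -0.26 on the log2 scale (standard error 0.09, 95% interval -0.48 to -0.05, adjusted p = 0.199), or 1.20-fold lower, it was the lowest of the 48 genes. Its partner Psme2 is read only by a probe set shared with Psme2b, which the rule leaves out. That probe set went the other way, with 9.30, 9.24 and 9.17 in TFEB KO muscle and 9.14, 9.05 and 9.01 in WT muscle (0.17, adjusted p = 0.381). Psme3, the nuclear activator, overlapped between the groups at 0.02 (adjusted p = 0.941). Psme4, a single-chain activator, read 12.24, 12.32 and 12.31 in TFEB KO muscle, against 12.08, 12.24 and 12.16 in WT muscle (0.13, adjusted p = 0.509). Psmf1, which inhibits the core in the test tube, read 7.41, 7.47 and 7.22 in TFEB KO muscle, against 7.65, 7.50 and 7.63 in WT muscle (-0.23, standard error 0.10, adjusted p = 0.304). Its TFEB KO arrays lay below those of WT, and its other 3 probe sets were at -0.24 to -0.08.

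The regulatory particle had a median log2 fold change of 0.10 over 17 subunits, of which 12 lay above 0 (46.6% of all genes did, and 51.4% of those with a mean above 10). It depended on the probe sets and arrays, with 0.05 and 11 of 17 above 0 on the mean of all probe sets, 0.04 and 9 of 17 on plain probe sets, and 0.05 and 11 of 17 without KO 3 and WT 1. Its ATPases, which unfold the substrate, had a median of 0.20 over 6 genes, and the 11 non-ATPases one of 0.05. Psmc6 was the ATPase with the smallest p, at 10.92, 10.78 and 10.76 in TFEB KO muscle, against 10.55, 10.59 and 10.60 in WT muscle (0.24, standard error 0.09, adjusted p = 0.215). The groups stood apart, and its other probe sets were at 0.30 and 0.36. Psmc2 had the largest log2 fold change of the ATPases, 0.28 (adjusted p = 0.382), but its groups overlapped. The third array was the highest of each group, with KO 3 at 12.21 and WT 3 at 11.82. Psmc5 was the lowest ATPase at -0.07.

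Among the non-ATPases, some of which bind ubiquitin or remove it, Psmd3, a subunit of the lid, stood below WT. It read 9.61, 9.69 and 9.65 in TFEB KO muscle, against 9.87, 9.79 and 9.89 in WT muscle (-0.20, standard error 0.09, adjusted p = 0.281). Psmd11, another subunit of the lid, was the highest at 0.21 (adjusted p = 0.348), with 11.11, 11.35 and 11.37 in TFEB KO muscle and 11.09, 11.07 and 11.05 in WT muscle. KO 1 lay close to the WT arrays, and the other 5 probe sets of Psmd11 were at 0.00 to 0.20. The other 9 non-ATPases lay between -0.06 and 0.15. TFEB KO was above WT without overlap in 2 of them (10.8% of all genes, and 16.5% of those with a mean above 10).

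Chaperones assemble the particles and leave before the proteasome works. Psmd5, a chaperone of the base of the regulatory particle, read 8.78, 8.81 and 8.68 in TFEB KO muscle, against 8.41, 8.51 and 8.34 in WT muscle. The groups stood clearly apart, and the log2 fold change of 0.34 (standard error 0.09, 95% interval 0.13 to 0.55, adjusted p = 0.115) was 1.26-fold. Of the other chaperones of the base, Psmd9 was lowest at -0.14 (adjusted p = 0.494), with 8.04, 8.10 and 8.01 in TFEB KO muscle and 8.19, 8.29 and 8.09 in WT muscle. Its other probe set was at 0.09. Psmd10, named after its value was seen, was at 0.20 (adjusted p = 0.348 from limma). It read 7.96, 7.71 and 7.84 in TFEB KO muscle, against 7.61, 7.63 and 7.68 in WT muscle. The chaperones of the core differed in sign, and none passed the test. Psmg1 read 8.20, 8.19 and 8.08 in TFEB KO muscle, against 8.30, 8.38 and 8.37 in WT muscle (-0.19, adjusted p = 0.302). Its partner Psmg2 read 9.77, 9.59 and 9.84 in TFEB KO muscle, against 9.48, 9.53 and 9.65 in WT muscle (0.18, adjusted p = 0.424), and its other probe set was at 0.28. The other two core chaperones lay at 0.07 and -0.06. The genes that share only the name lay at 0.08 (Psmc3ip) and -0.04 (Psme3ip1), and their groups overlapped.

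**Figure D4:**
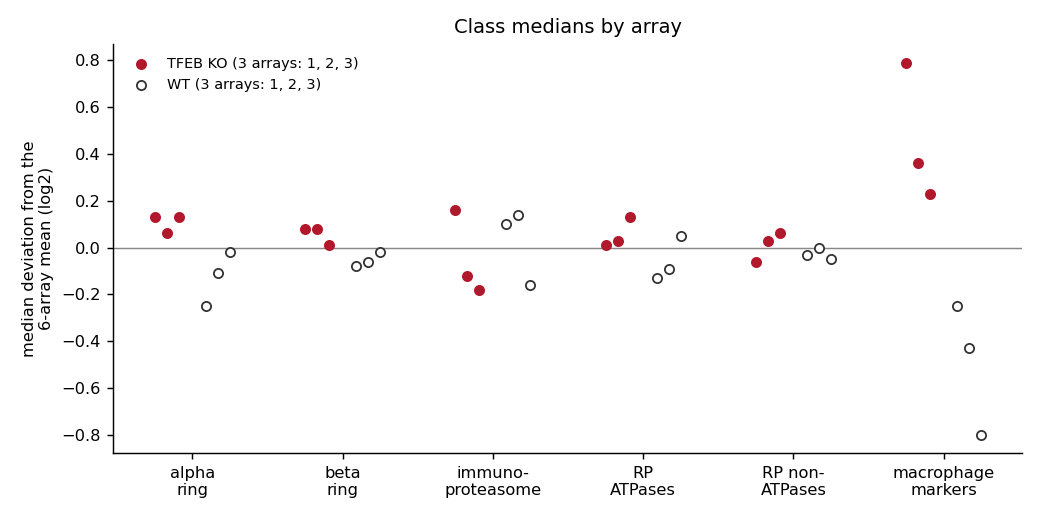
Median deviation of the genes of a class from their 6-array mean (log2, vertical axis), with 1 point per array, filled for 3 TFEB KO and open for 3 WT mice, arrays 1 to 3 from left to right. RP stands for the regulatory particle. The alpha ring lies at 0.06 to 0.13 on the TFEB KO arrays and at -0.25 to -0.02 on the WT arrays, while the immunoproteasome overlaps and the macrophage markers span a wider range.

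Of the 48 genes, 27 have 1 probe set and 21 have several, and the log2 fold changes of those sets had the same sign in 13 genes and mixed signs in 8. The 37 dimmer probe sets had a median of 0.09, with 25 above 0, and none passed the test in limma (smallest adjusted p 0.133), where 1.6% of all probe sets passed. At an unadjusted p under 0.05 were 2 of the 37, against 17.2% of all probe sets. Psma5 was at 0.40 on its brightest set, 0.15 on the next and -0.13 on a dim plain one. Psmc2 was at 0.28 and -0.04, and Psmc4, an ATPase named after its values were seen, at 0.22 and -0.16 (adjusted p = 0.497 and 0.40). A suffix to the name of a probe set tells whether its probes match several transcripts of one gene (_a_at) or may also match other genes (_x_at). The 53 proteasome probe sets with the plain suffix _at had a median of 0.04, the 20 with _a_at one of 0.19 and the 8 with _x_at one of 0.23, against -0.03, -0.02 and 0.05 for all probe sets of these kinds. WT 1 was the lowest array in 12 of the 20 and in 7 of the 8, and KO 3 the highest in 9 and in 4.

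Control probe sets for the ends of the same transcript differed between the arrays. The 3′ minus 5′ difference for Pcx was 3.01, 2.94 and 3.09 in TFEB KO muscle, against 2.60, 2.75 and 2.66 in WT muscle, and that for Tfrc 3.66, 3.44 and 2.92 in TFEB KO muscle, against 4.00, 3.93 and 3.84 in WT muscle. Those for Gapdh and Actb lay between -0.25 and 0.02. The genotypes stood apart in opposite directions for Pcx and Tfrc, and the part of RNA quality in the values of the core was not tested.

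**Figure D5:**
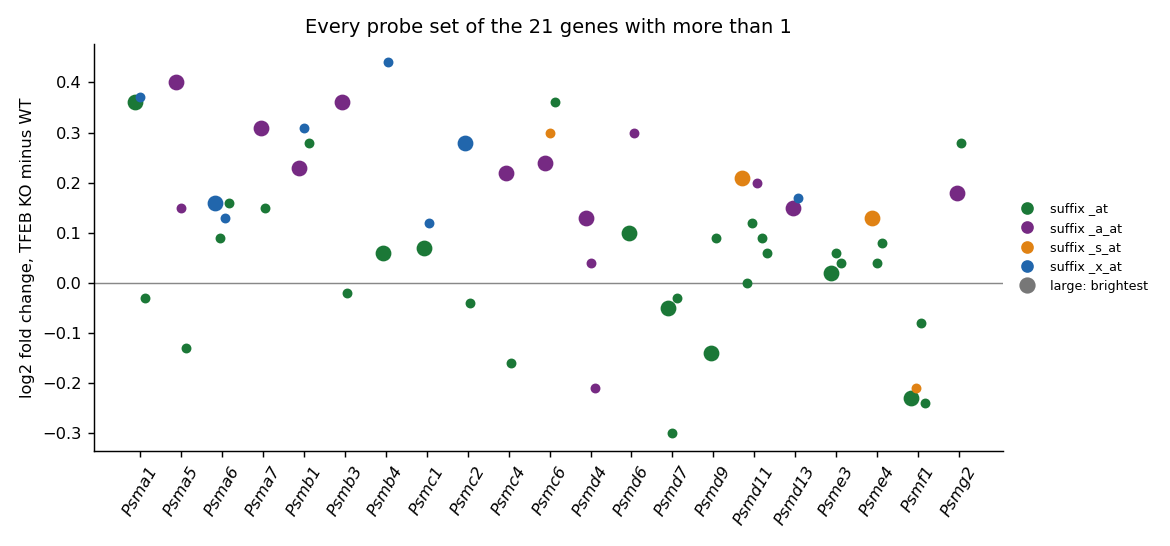
Log2 fold change of TFEB KO over WT muscle (vertical axis) for every probe set of the 21 proteasome genes with more than 1, coloured by the suffix of the probe set, with the brightest drawn large. Psmb3, Psmc2 and Psmc4 have probe sets on both sides of 0, while all 3 sets of Psmb1 and of Psmc6 lie above it.

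Genes that work with the proteasome but fall outside the name rule were counted on lists. Of 42 measured, 1 passed the test (1.57% of all genes did). It was Erap1, which trims peptides for MHC class I in the endoplasmic reticulum, at 7.19, 6.99 and 7.12 in TFEB KO muscle, against 6.44, 6.59 and 6.49 in WT muscle (log2 fold change 0.60, adjusted p = 0.0306 from limma), or 1.51-fold. Without any single array but KO 1, none of the 42 passed (smallest adjusted p 0.0669 to 0.133). Of the other 15 genes of MHC class I and interferon-gamma, 9 lay above 0 and none passed. With Erap1, TFEB KO was above WT without overlap in 5 of the 16 (31.2%, against 10.8% of all genes). It was below WT without overlap in 0 (12.9% of all genes). Besides Erap1 the 5 were Cd74 (0.49), Gbp2 (0.38), Irf9 (0.28) and Ifngr1 (0.13), named after their values were seen. In RefSeq Psmb9, Tap1, Psmb8 and Tap2 are neighbours, and the peptide transporter genes, named for that place after their values were seen, had log2 fold changes of -0.01 for Tap1 and -0.37 for Tap2 (adjusted p = 0.983 and 0.263). Tap2 read 7.21, 6.64 and 6.68 in TFEB KO muscle, against 7.27, 7.16 and 7.21 in WT muscle, so that KO 1 overlapped with WT.

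Partners of the proteasome lay above 0 in 13 of 14 genes, with a median of 0.16, and none passed (46.6% of all genes lay above 0, and 51.4% of those with a mean above 10). The smallest p-values were those of Ubqln4, a shuttle for ubiquitin-tagged proteins (0.40, adjusted p = 0.149), and Sem1, a small subunit of the lid (0.20, adjusted p = 0.364). Ubqln4 read 9.43, 9.65 and 9.67 in TFEB KO muscle, against 8.98, 9.26 and 9.33 in WT muscle. The 7 genes that govern the transcription of the proteasome all lay above 0 too, with a median of 0.12, and none passed. Mafg, a small Maf protein that pairs with NFE2L1 and NFE2L2, was at 0.35 (adjusted p = 0.161), and Nfe2l2 itself at 0.21 (adjusted p = 0.462). Of 5 genes that extract ubiquitin-tagged proteins, the VCP cofactors Ufd1 (0.20, adjusted p = 0.424) and Nsfl1c (0.06, adjusted p = 0.788) had the smallest p-values.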

How the data were processed

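Total RNA from muscle was labelled with biotin and hybridised to 1 Affymetrix array per mouse. The deposited values are log2 expression, which the authors computed with RMA from the R package affy (the sources used here give no version or setting). Of 22690 probe sets, 64 are Affymetrix controls. The other 22626 were tested two-sided, TFEB KO minus WT, by lmFit and eBayes of limma 3.58.1 under R 4.3.3. P-values were adjusted by the method of Benjamini and Hochberg, and an adjusted p under 0.05 counted as past the test, with no fold minimum. The platform annotation gives 1 gene for 20380 probe sets, several for 691 and none for 1555, and all 48 members were found by Entrez ID in RefSeq with 0 symbols changed. Psmb11 has no probe set of its own here. Dim means below 4.69, the limit of the lowest 25% of probe sets by mean. Tables and plots were made in Python 3.11.15 (pandas 2.3.3; matplotlib 3.10.9), and the test was tried on simulated data.

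The members, lists and tests were chosen with earlier results of these data known. Named genes are the 10 members with the smallest p, the immunoproteasome with its counterparts, the activators and Psmf1, the extremes of each class, and, on each related list, those past the test or the 2 with the smallest p. Psma8, Psmb1, Psmb2, Psmb7, Psmc3, Psmd3, Psmd7 and Psmg2 had no promoter window in the table used. Alternatives changed the scaling (quantile normalization repeated, or arrays shifted to 1 common 75th percentile), the filter (no dim probe sets), the fit (trended and robust moderation, weighted arrays, or a block for the replicate number), the test (the t-test of the methods), the summary (probe sets of a gene averaged) and the arrays (each left out in turn). The brightest plain probe set, and the fit without both KO 3 and WT 1, were added after the data were seen. The number of arrays limits the precision.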

Additional observations from a re-analysis of the deposited data

How the results depend on the processing

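None of the 48 proteasome genes passed the adjusted test in limma with any single array left out (0 to 0), with another normalization, with array weights or with the mean of all probe sets, and 1 did with trended and robust moderation (Psmb3). Of all probe sets 361 passed with all arrays, 438 without KO 1, and only 21 to 93 without any other single array. With so few calls in those fits, a count of 0 says little about the proteasome genes. The methods' t-test gave 13 of the 48 without adjustment, where 3282 of all 22626 probe sets passed. After adjustment it gave 0 (smallest adjusted p 0.14), where 1 of all probe sets passed. The core median was 0.17 to 0.21 with 1 array left out, 0.14 without both KO 3 and WT 1 and 0.11 with plain probe sets. That of the regulatory particle was 0.08 to 0.12 with 1 array left out, 0.05 with the mean of all probe sets, 0.04 with plain probe sets and 0.05 without KO 3 and WT 1. With 1 array left out Psmb8 lay at -0.29 to -0.06, Psmb9 at -0.19 to 0.02 and Psmb10 at -0.08 to 0.11. Without KO 3 and WT 1 Psmb8 was at 0.05 and Psmb9 at 0.06, and Psmb10 was at -0.01 with array weights. Plain probe sets put Psmb3 at -0.02, Psma5 at -0.13, Psmc2 at -0.04 and Psmd11 at 0.00. Psmb5 was at -0.01 after a second quantile normalization and -0.02 to 0.06 with 1 array left out, Psme3 at -0.06 without KO 3 and WT 1 and -0.03 to 0.11, Psmb2 at 0.00 and -0.10 to 0.02, and Psmc3ip at 0.22 and -0.01 to 0.17. Of 463 other values of 29 single genes, 21 had the other sign and 1 passed the adjusted test, and the causes were not tested. Many of the 463 could not change sign. The dim filter, the moderation, the block and the t-test leave the log2 fold change as it was. Plain probe sets also do so where the brightest one is plain.

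Whether the replicate numbers pair the mice cannot be decided from 3 arrays a group. Deviations of same-numbered arrays correlated at 0.0876, 0.0477 and 0.265, and those of differently numbered arrays at -0.251 to 0.172. KO 1 and KO 3 correlated best with the WT array of their own number, while KO 2 correlated best with WT 1. With the replicate number as a block, 0 proteasome genes and 297 probe sets passed, against 361 without it, and 0 of 42 related genes passed. Of those 42, 0 passed without KO 3 and WT 1, where 1 of all 22626 probe sets did. With 1 array left out 0 to 2 of the 42 passed, where 21 to 438 of all probe sets did. By the methods' t-test 0 of the 42 passed after adjustment. Before it 9 passed, where 3282 of all 22626 probe sets did. Psma8 was the one member below the dim limit.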
